A study of Drosophila melanogaster with 20 samples.

Results

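ImpE1, ImpE2 and ImpE3 are the early members of a group of fruit fly genes that were isolated as ecdysone-inducible messages of membrane-bound polysomes in imaginal discs, the larval sacs of epithelium from which wings and legs form. The steroid hormone ecdysone acts through its nuclear receptor EcR, which binds DNA together with Usp and switches on target genes at the end of larval life. The discs then turn inside out and elongate, while the larval salivary gland secretes glue and is later destroyed. ImpE1 codes for a protein related to the low-density lipoprotein receptor family, and ImpE2 codes for a protein secreted from the apical side of the disc epithelium.

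EcR binding at these 3 genes was taken from CUT&RUN, in which an antibody tethers a nuclease that cuts out the DNA around the bound protein. Wings, legs and salivary glands were taken from wandering female larvae at 6 hours before the puparium forms, all of the genotype w; EcR-GFSTF / Df(2R)BSC313. Every sample compared here therefore carried the tagged EcR on 1 homologue over a deficiency on the other, and EcR was recovered through the Flag part of its tag. Each tissue had 2 supernatant and 2 pellet libraries, 12 in all, pooled from at least 50 glands or 90 wings or legs per the labels. The series also has 8 IgG libraries, 6 of them from wings without the tag and 2 from glands with it, which were not analysed here. Whether replicates came from separate dissections is not stated, so the spread behind the p-values is that of libraries and may be technical.

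A site or peak was counted as belonging to a member where its midpoint or summit lay in the span of the gene or within 2000 bp of it, on dm6. By this rule 7 of the 3463 sites in the authors' deposited tables belonged to the 3 genes, 2 to ImpE1, 4 to ImpE2 and 1 to ImpE3. Of all 13962 coding genes, 1925 (13.8%) had at least 1 site by the same rule. The 6 peak lists, 1 per tissue and fraction with the replicates merged by the authors, held 23 member peaks between them. The tables give no value per library and the depth is unknown. Each site has a mean normalised read count over the libraries of the authors' fit, with a median of 9.59 over all sites. No label or header says which libraries and fractions entered that fit. If supernatant and pellet of a replicate entered as separate libraries, they may share a sample, and the deposited errors and p-values would then not rest on independent samples. Whole tissues were used, so fewer cells with bound EcR and less EcR per cell cannot be told apart. Of 12 genes of wing, leg or gland identity, 6 had sites, beside 13.8% of coding genes. Among the gland genes, the authors' deposited tables made the fkh site higher in the gland than in both discs, but none of the 3 CrebA sites gland-biased, with 1 higher in the wing and 1 higher in the leg. The 2 sites of ap, a wing gene, exceeded the gland in the wing, and so did the site of Dll, a leg gene, while those of vg and Dad, also wing genes, were not called. Binding is not expression, so these sites do not settle the identity of the tissues.

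EcR lay beside all 3 genes, with no midpoint of a site and no summit inside their spans. ImpE2, on 3L from 3510974 to 3512681 and 1708 bp long, had its 4 sites on 1 side, in the 3069 bp that separate it from Eip63E, an ecdysone-induced gene of the cyclin-dependent kinase family. ImpE1, on 3L from 8372405 to 8391171, is 18767 bp long, and its 2 sites lay outside the end with the lower coordinates. ImpE3, on 3R from 8028453 to 8029546, lies wholly inside the span of CG2747. Its single site lay 452 bp outside ImpE3, still inside CG2747 and 413 bp from the span of CG10903. The site was also 1132 bp from the span of CG11035, so it belongs to the windows of CG2747, CG10903 and CG11035 too. The gene table used has no strand, exons or introns, so upstream and downstream were not distinguished. In the plots the sites of a gene are numbered from the gene outwards.

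**Figure D1:**
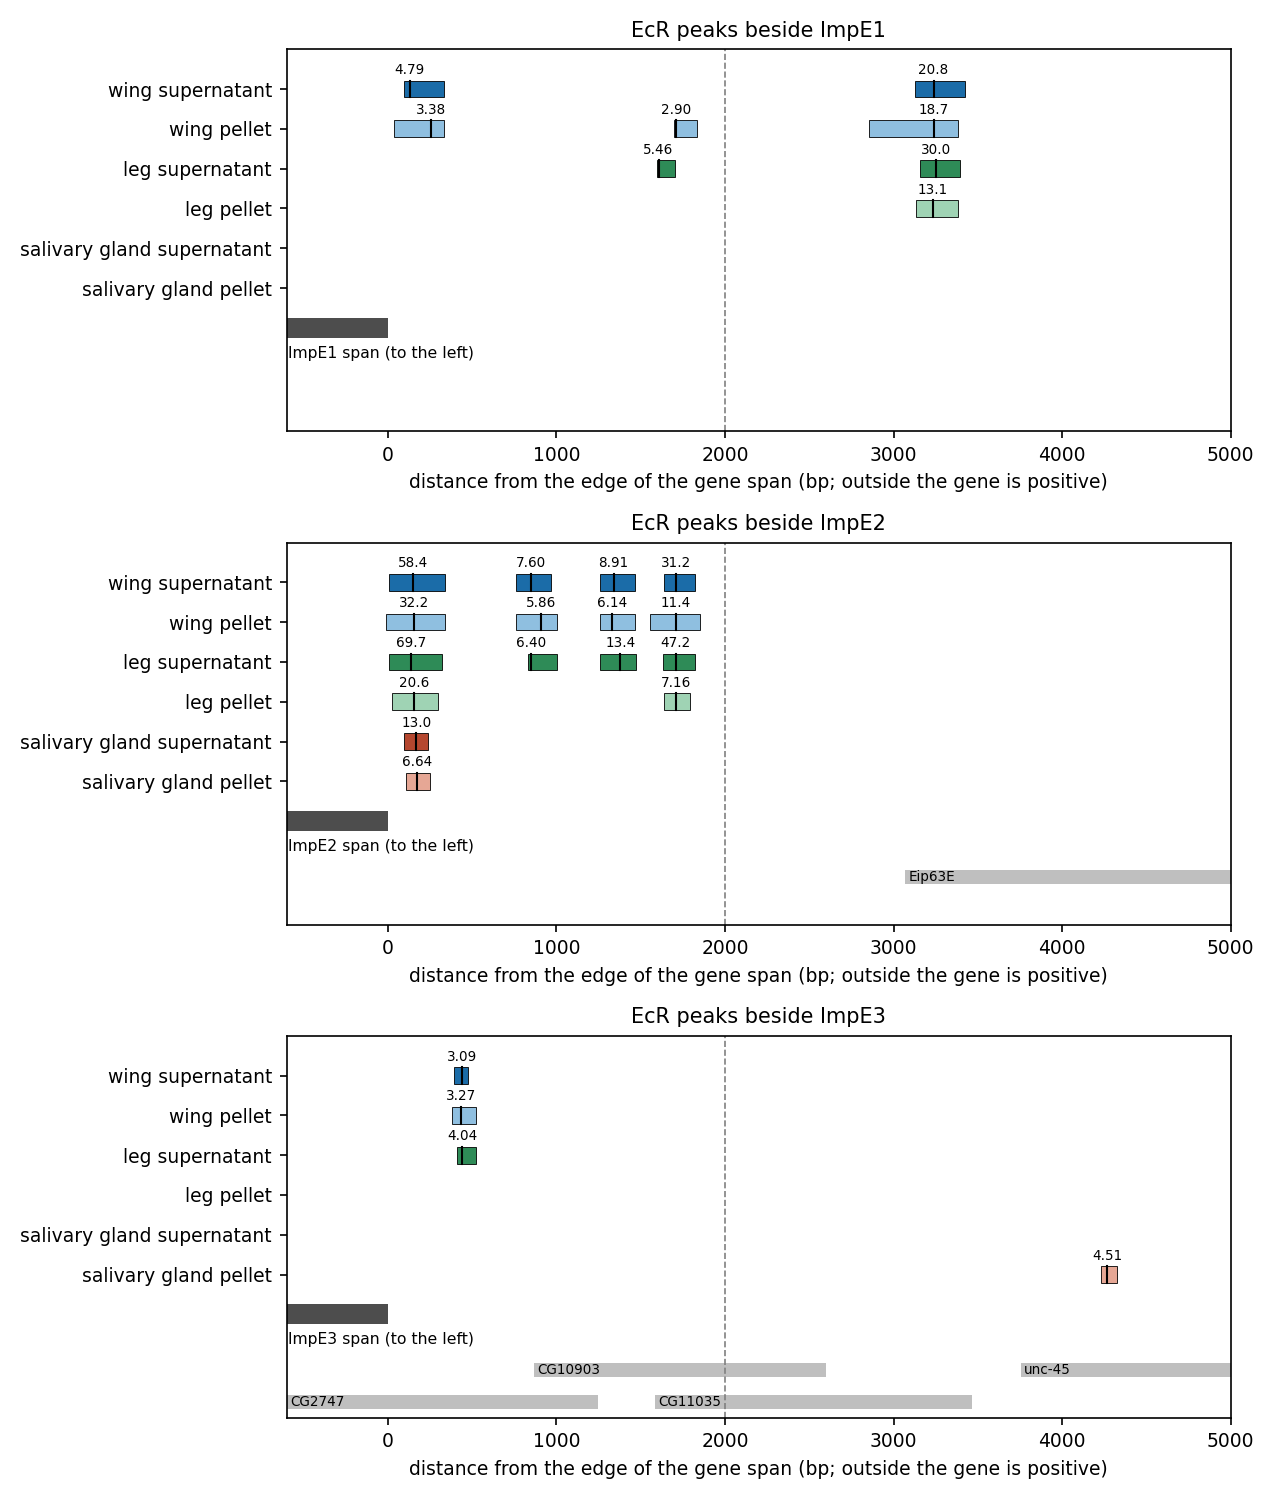
Peaks beside the 3 ImpE genes by distance from the edge of the gene span in bp. Bars are peaks of the 6 lists, the black tick is the summit, the number is the authors' fold enrichment over background, grey bars are other genes and the dashed line marks 2000 bp. ImpE2 has 4 groups of peaks within 2000 bp, and only the group nearest to the gene has gland peaks.

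In the lists, fold enrichment over background is the authors' value per peak and ranks peaks within its own list only. The wing supernatant list had a peak at 3 of the 3 genes, where 5.28% of 13962 coding genes had one, and so did the wing pellet list (5.11% of coding genes) and the leg supernatant list (6.05%). The leg pellet list had peaks at ImpE2 alone (3.28% of coding genes). Both gland lists also had a peak at ImpE2 alone, against 7.23% of coding genes in the supernatant and 6.31% in the pellet. The genes were picked with results of these lists already known, and no test was made.

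The strongest of the member sites was the one nearest to ImpE2, on 3L from 3512672 to 3513018, which begins in the last bases of the gene span. Its midpoint was 1950 bp from the span of CG42324, the gene on the other side of ImpE2, so the site belongs to the windows of both genes. It was the only member site with a peak in all 6 lists. Its fold enrichment was 58.4 in the wing supernatant, 69.7 in the leg supernatant and 13.0 in the gland supernatant. In the pellet lists it was 32.2 for the wing, 20.6 for the leg and 6.64 for the gland. It ranked 18 of 1442 peaks in the wing supernatant and 19 of 1596 in the leg supernatant. In the gland the same place ranked 190 of 1174 in the supernatant and 459 of 936 in the pellet. All 6 summits fell within 34 bp of each other, from 3512819 to 3512853.

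The ImpE2 site farthest from the gene, on 3L from 3514238 to 3514531, was the next strongest. Its peaks had a fold enrichment of 31.2 in the wing supernatant, 47.2 in the leg supernatant, 11.4 in the wing pellet and 7.16 in the leg pellet, and no gland list held a peak there. The 4 disc summits lay within 2 bp of each other, at 3514390 to 3514392. The leg supernatant peak ranked 36 of 1596 and that of the wing 68 of 1442. This place is 1366 bp from the span of Eip63E and 1703 bp from that of ImpE2, so it belongs to the windows of both genes.

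Between these lay a pair of weaker ImpE2 sites. The inner one, on 3L from 3513440 to 3513685, had fold enrichments of 7.60 in the wing supernatant, 5.86 in the wing pellet and 6.40 in the leg supernatant. The outer one, on 3L from 3513940 to 3514151, reached 8.91, 6.14 and 13.4 in the same lists and is also within 2000 bp of Eip63E. Neither had a peak in the leg pellet or in the gland. Their summits were less exactly placed, within 58 bp at the inner site and 50 bp at the outer one. In the wing supernatant the peak nearest to ImpE2 exceeded the inner peak by a factor of 7.68 and the outer peak by a factor of 6.55.

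The 4 ImpE2 sites together covered a stretch of 1860 bp, with gaps of 86 to 421 bp between neighbours. Of all 3439 runs of 4 neighbouring sites in the tables, 56 fitted into a stretch of that length. Only 163 of 13962 coding genes (1.17%) had 4 or more sites in their window. Among the 5576 coding genes no longer than ImpE2 there were 6 (0.108%), ImpE2 included. The number of sites, the stretch and the length limit were all taken from ImpE2 itself, so these shares describe the locus and test nothing.

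At ImpE1 and ImpE3 the peaks were weak. The ImpE1 site nearest to the gene, on 3L from 8372069 to 8372369, had a fold enrichment of 4.79 in the wing supernatant and 3.38 in the wing pellet, with summits 130 bp apart. The other ImpE1 site, on 3L from 8370572 to 8370808, had 2.90 in the wing pellet and 5.46 in the leg supernatant, with summits 102 bp apart. All 4 values were below the medians of their lists, 6.45 for the wing supernatant, 4.22 for the wing pellet and 6.84 for the leg supernatant. The ImpE3 site, on 3R from 8029926 to 8030070, had 3.09 in the wing supernatant, 3.27 in the wing pellet and 4.04 in the leg supernatant, again below the medians. The wing supernatant peak at ImpE3 had a −log10 q of 1.54, close to the lowest value in that list, 1.33. Its summits were nevertheless placed within 4 bp in the 3 lists, at 8029983 to 8029987.

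**Figure D2:**
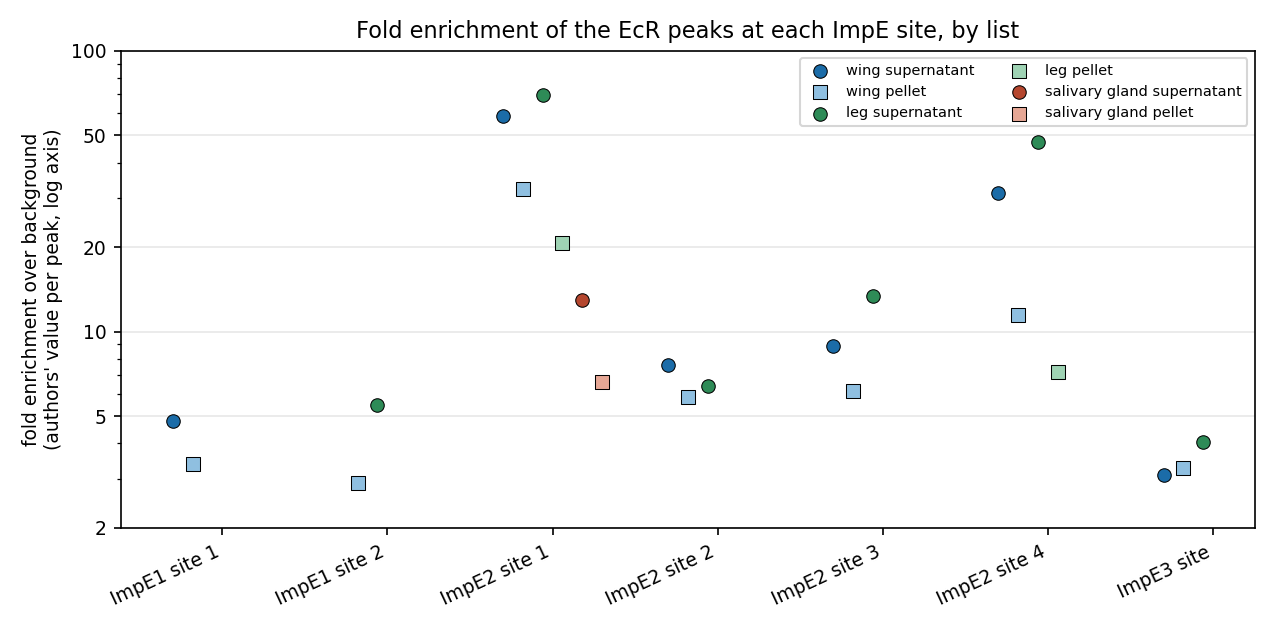
Fold enrichment over background (the authors' value per peak, log axis) at the 7 ImpE sites, by list. Circles are supernatant lists and squares pellet lists, and a missing symbol means that the list held no peak. ImpE2 site 1 has symbols from all 6 lists, from 6.64 to 69.7, and the ImpE1 and ImpE3 sites have none above 5.46.

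The 2000 bp limit left a strong ImpE1 neighbour just outside. Just inside it were the outer ImpE1 site, 1715 bp from the span, and the outermost ImpE2 site. Just outside it, 3137 bp from ImpE1 on the same side, was a site on 3L from 8368983 to 8369553 with peaks in the 4 disc lists, at 20.8 and 18.7 in the wing supernatant and pellet and 30.0 and 13.1 in the leg. Its 4 summits lay within 17 bp, its mean normalised count was 63.0, and its log2 fold changes were 2.53 (SE 0.34) for the wing and 2.56 (SE 0.36) for the leg over the gland in the authors' deposited tables. The nearest other gene, Idh, was 8362 bp away. A second site outside the limit, 4276 bp from ImpE3 and inside unc-45, had a single peak, in the gland pellet (4.51). Its log2 fold changes were -1.98 (SE 0.65) and -1.29 (SE 0.67) for wing and leg over the gland in the authors' deposited tables. The adjusted p in those tables was 0.00842 against the wing, with the higher value in the gland, and 0.113 against the leg.

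The wing was compared with the salivary gland first. A site is called wing-biased, leg-biased or gland-biased here where the authors' deposited table gives it an adjusted p under 0.05 and a higher value in that tissue. All 7 ImpE sites were wing-biased in the authors' deposited table, where 28.7% of the 3459 sites tested were wing-biased and 26.4% gland-biased. Their median log2 fold change was 1.87, against 0.46 over all sites of the authors' deposited table. The values ran from 1.30 to 2.66, a difference of 2.46-fold to 6.34-fold. Of the 7 sites, 6 had no gland peak and overlapped peaks of disc lists alone, so a higher disc value was partly built in. The shares over all sites include sites with gland peaks. Of the 562 sites with a supernatant peak in both discs and no gland peak, 66.0% were wing-biased in the authors' deposited table.

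The 3 lowest adjusted p of the 7 sites were at ImpE2. The site nearest to the gene was 4.45-fold higher in the wing (log2 fold change 2.15, SE 0.33, adjusted p = 9.73e-10 in the authors' deposited table). The outermost site was 5.76-fold higher (2.53, SE 0.35, adjusted p = 2.71e-11 in the authors' deposited table). Its mean normalised count over the libraries was 54.7, and that of the nearest site was 130 (rank 124 of 3463 sites), so both rested on more reads than most sites. Per 100 bp of site these means were 18.6 and 37.5. The inner weak site had the largest value of the 7, 2.66, with a wider error (SE 0.64, adjusted p = 0.000348 in the authors' deposited table) on a mean count of 12.0. The outer weak site had 1.46 (SE 0.51, adjusted p = 0.0112 in the authors' deposited table) on a mean count of 20.2.

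ImpE3 had a log2 fold change of 1.87 (SE 0.63, adjusted p = 0.00947 in the authors' deposited table) for the wing over the gland. At ImpE1 the site nearest to the gene had 1.47 (SE 0.55, adjusted p = 0.0188 in the authors' deposited table). The other had 1.30 (SE 0.58) and only just passed, with an adjusted p of 0.0482 in the authors' deposited table. The means of these 3 sites were low, 8.40 at ImpE3 and 10.4 and 8.25 at ImpE1, or 5.79, 3.46 and 3.48 per 100 bp. The median of all sites itself lay on the wing side. After the arms' median of 0.42 was subtracted, all 7 values stayed above 0, but 3 passed, the ImpE2 sites nearest to the gene (1.74), in the inner weak place (2.25) and outermost (2.11). The share of all sites that passed after this step is not given here, so the 3 of 7 has no background beside it.

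**Figure D3:**
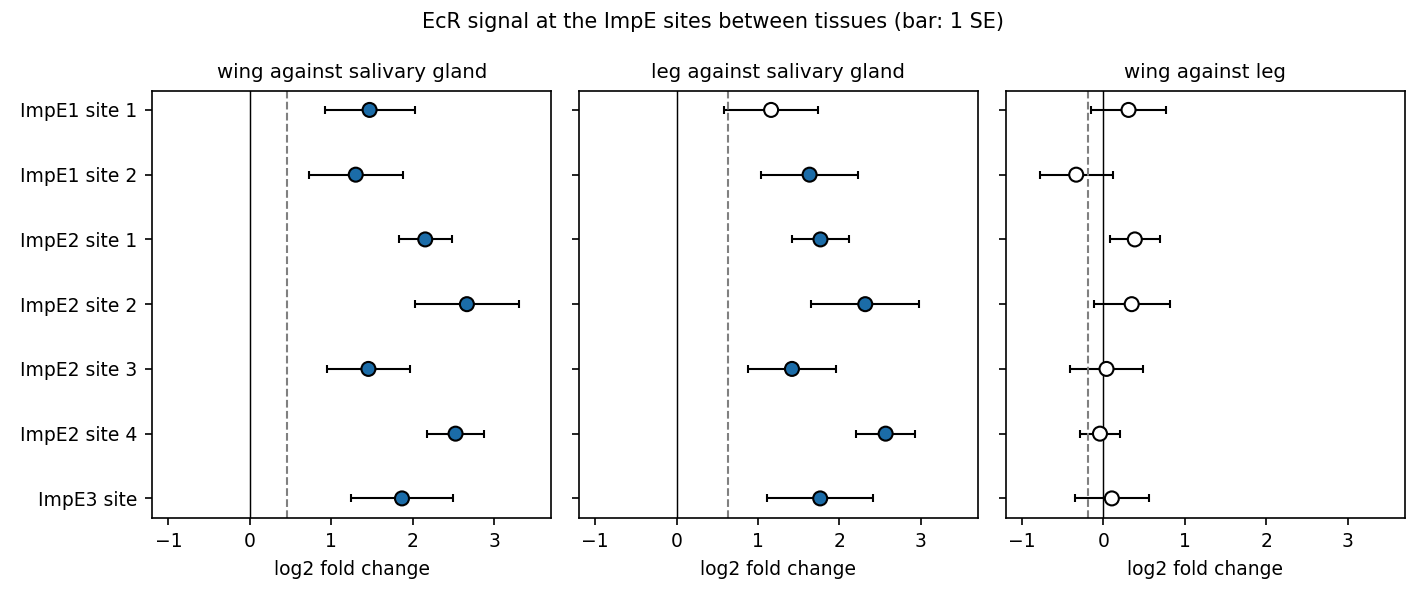
Log2 fold changes of the 7 ImpE sites in the 3 comparisons, with bars of 1 SE, from the authors' deposited tables. Filled circles had an adjusted p under 0.05, and the dashed line is the median of all sites. All 7 sites lie right of the dashed line in both panels against the gland, and none is filled between wing and leg.

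Against the gland, 6 of the 7 sites were leg-biased and none gland-biased in the authors' deposited table, beside 29.6% and 22.7% of all sites tested. Both comparisons share the gland libraries, so the second is not independent of the first. The same 6 sites lacked a gland peak, so the limit given for the wing holds here too. Of the 562 sites with a supernatant peak in both discs and no gland peak, 63.2% were leg-biased in the authors' deposited table. The median of the 7 was 1.76, against 0.63 over all sites of the authors' deposited table. At ImpE2 the values from the gene outwards were 1.77 (SE 0.35), 2.32 (SE 0.66), 1.42 (SE 0.54) and 2.57 (SE 0.36), with adjusted p of 7.79e-06, 0.00296, 0.0219 and 1.35e-10 in the authors' deposited table. ImpE3 had 1.76 (SE 0.65, adjusted p = 0.0188 in the authors' deposited table). The outer ImpE1 site had 1.63 (SE 0.60, adjusted p = 0.0184 in the authors' deposited table). The ImpE1 site nearest to the gene had 1.16 (SE 0.58) and did not pass (adjusted p = 0.0785 in the authors' deposited table). After the arms' median of 0.63 was subtracted, the same 3 ImpE2 sites as for the wing passed, at 1.14, 1.69 and 1.94. For the leg, too, the share of all sites that passed after this step is not given.

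Between wing and leg none of the 7 sites was called in the authors' deposited table, with adjusted p from 0.674 to 0.981, where 1.47% of 3327 sites were called in either direction. None had an unadjusted p under 0.05 either. The log2 fold changes ran from -0.33 to 0.39. The outermost ImpE2 site had the narrowest interval, from -0.51 to 0.43 (1.96 SE on each side of -0.04, in the authors' deposited table). The ImpE2 site nearest to the gene had 0.39 (-0.22 to 0.99) and ImpE3 had 0.10 (-0.79 to 1.00) in the authors' deposited table. At the ImpE1 site that passed in the wing but not in the leg, the difference between the discs was 0.31 (-0.58 to 1.20, adjusted p = 0.853 in the authors' deposited table). Over the 7 sites the intervals reached as low as -1.21, at the outer ImpE1 site, and as high as 1.26, at the inner weak ImpE2 site. At each of these sites the wing and leg values against the gland differ by exactly the value between wing and leg, so the third table adds an error but no separate measurement.

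The differences went with the peak calls. Of the 7 sites, 6 had no gland peak and 1 had gland peaks in both fractions. A supernatant peak in both discs and no gland peak marked 4 of the 7, the outer 3 of ImpE2 and that of ImpE3, and the authors' deposited tables made all 4 wing-biased and leg-biased. Among all 562 sites with this combination of peaks, 66.0% were wing-biased and 63.2% leg-biased, with medians of 1.41 and 1.40 in the authors' deposited tables. The peaks and the fold changes come from the same libraries, so they are not separate evidence. At the ImpE2 site nearest to the gene the gland had peaks, and the discs still exceeded it by 4.45-fold and 3.40-fold. Peak names point to merged wing IgG libraries as the background of the gland lists too, and the part of that choice in the missing gland peaks was not tested.

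**Figure D4:**
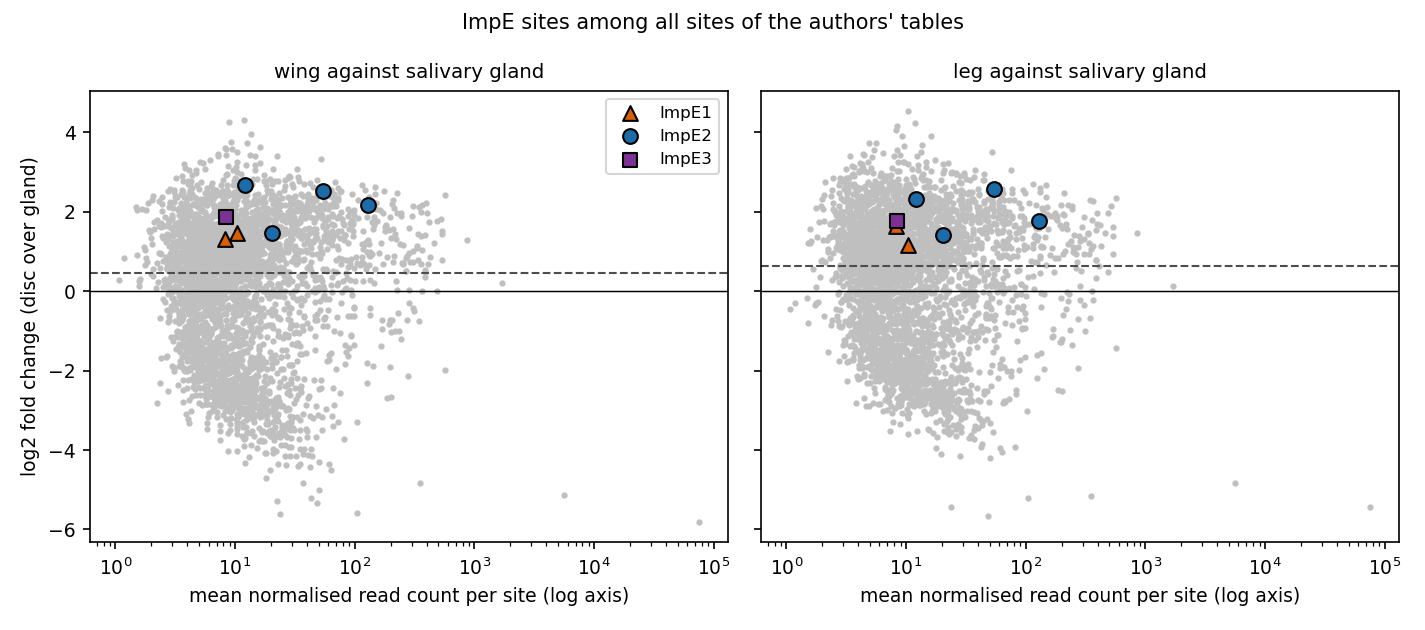
Log2 fold change of disc over gland against the mean normalised read count (log axis) for all 3463 sites of the authors' deposited tables, in grey, with the ImpE sites marked. The dashed line is the median of all sites, 0.46 for the wing and 0.63 for the leg, and all 7 ImpE sites lie above it in both panels.

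Pooled over other genes of the ecdysone response, sites were more often gland-biased than biased to either disc. A list of 30 such genes had 198 sites at 22 of them, where 13.8% of coding genes had at least 1 site. Of these 198 sites, 41 (20.7%) were wing-biased and 80 (40.4%) gland-biased in the authors' deposited table, where all sites had 28.7% and 26.4%. Their median was -0.57, against 0.46 over all sites. In the leg comparison, 35 (17.7%) were leg-biased and 81 (40.9%) gland-biased in the authors' deposited table, beside 29.6% and 22.7% of all sites. The median was -0.58, against 0.63. The 2 outer ImpE2 sites that Eip63E shares are in these counts. Without them 39 of 196 sites were wing-biased and 80 gland-biased. The only other Eip63E site, inside its span on 3L from 3547091 to 3547271, had -0.94 (SE 0.37, adjusted p = 0.0256 in the authors' deposited table) for the wing and -0.64 (SE 0.39, adjusted p = 0.154) for the leg. Eip75B, an early nuclear receptor gene, had 16 wing-biased and 27 gland-biased sites among 57 in the authors' deposited table. EcR itself had 1 and 7 of 8. Not every gene of the list went this way, with 7 and 6 of 19 at Hr4 and 4 and 4 of 11 at Eip78C. Wing-biased sites lay at 12 genes of the list, EcR, br, Eip75B, Eip78C, Hr4, Kr-h1, Blimp-1, vri, E23, Eip63E, Hsp23 and Hsp27. Gland-biased sites against the wing lay at 16, those of these genes other than Blimp-1, Hsp23 and Hsp27, and tai, Eip74EF, Hr3, Hr39, Hr78, Eip63F-1 and ImpL2. The wing-biased sites of Eip63E were the 2 that it shares with ImpE2, and Hsp23 and Hsp27 counted 1 and the same wing-biased site.

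Blimp-1, a repressor gene induced by ecdysone, was the only one of these 22 genes with every site called higher in both discs, 3 of 3 in the authors' deposited tables. A gene with few sites can meet this more easily, and Eip75B had 57, Hr4 19 and Eip74EF 18. The share over all genes was not counted. The Blimp-1 values over the gland were 2.67, 1.33 and 1.76 for the wing and 2.72, 1.08 and 1.95 for the leg in the authors' deposited tables. Among the 163 coding genes with at least 4 sites, every site was wing-biased at ImpE2 and at 2 others, Dyrk2 and CG46304, which were named after their values were seen. The limit of 4 is the count of ImpE2 itself, and each of these genes had exactly 4 sites, the fewest allowed.

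The late members of the Imp group gave other values. ImpL2, which codes for a secreted protein that binds insulin-like peptides, had 2 sites inside its span. The one on 3L from 4225681 to 4225888 was gland-biased against the wing (-2.83, SE 0.45, adjusted p = 5.58e-09 in the authors' deposited table). Against the leg it had -1.92 (SE 0.45, adjusted p = 0.000174 in the authors' deposited table). The other had 0.42 (SE 0.64) and 0.96 (SE 0.65) in the authors' deposited tables and did not pass. ImpL3, the lactate dehydrogenase gene now called Ldh, had 1 site, with -0.72 (SE 0.49) and -0.01 (SE 0.51) in the authors' deposited tables, and did not pass either. ImpL1 had no site.

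Genes of disc eversion, the process in which the discs unfold, had medians between those of the other 2 sets. A list of 21 genes had 32 sites at 13 of them, where 13.8% of coding genes had at least 1 site. Of these 32 sites, 12 (37.5%) were wing-biased and 3 (9.38%) gland-biased in the authors' deposited table, beside 28.7% and 26.4% of all sites. For the leg the counts were 10 (31.2%) and 2 (6.25%) in the authors' deposited table, beside 29.6% and 22.7%. The list's medians, 0.59 and 0.77, were close to the 0.46 and 0.63 of all sites. The wing-biased sites were at Sb, Np, dpy, pio, zip and Ppn and the gland-biased ones at sqh, RhoGEF2 and Ppn. At pio, which codes for an apical matrix protein, 3 of 4 sites were wing-biased. The one with the highest mean count, on 2R from 24590950 to 24591532, had 1.67 (SE 0.22, adjusted p = 3.31e-12 in the authors' deposited table). Its value was the lowest of the 3, and the highest was 2.35 (SE 0.84, adjusted p = 0.0145 in the authors' deposited table). At Sb, a membrane protease needed for eversion, 2 of 4 were biased to each disc in the authors' deposited tables, and at sqh, the myosin light chain gene, the 1 site was gland-biased. None of the 32 sites was called between wing and leg in the authors' deposited table, beside 1.47% of all sites. The lists were described by counts and medians, and the differences between them were not tested.

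**Figure D5:**
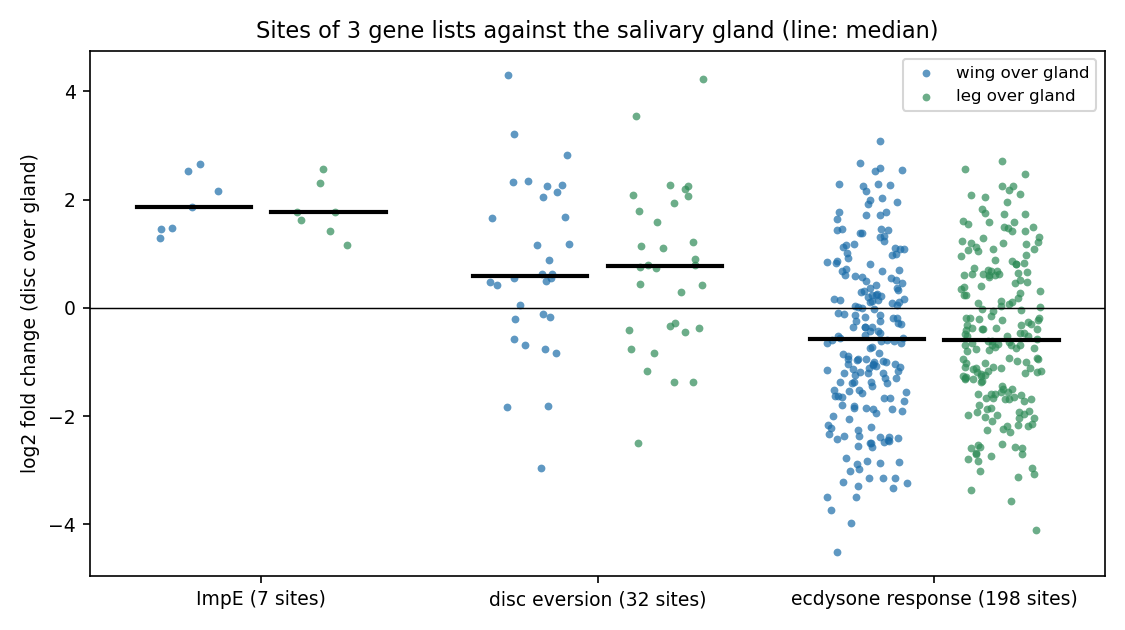
Log2 fold change of disc over gland, in the authors' deposited tables, for the sites of the ImpE genes, of disc eversion genes and of ecdysone response genes. Points are sites spread sideways for legibility and black lines are medians, which are 1.87 and 1.76 for ImpE, 0.59 and 0.77 for disc eversion and -0.57 and -0.58 for the ecdysone response.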

How the data were processed

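EcR CUT&RUN peaks and comparisons were used as the authors deposited them. The submitters' processing notes list MACS2 2.1.2 and DESeq2 among the tools and dm6 as the build, without order or settings. They also list R 3.5.2 and Bowtie2 2.3.4.1 with Picard 2.2.4. Per the peak lists' names, replicates were merged, duplicates removed and fragments of limited size kept. Peaks carry a fold enrichment (a ratio over background), a −log10 q value, a display score and, as an other kind of value, the offset of the summit in bp, all deposited by the authors. Per the file headers, the tables hold a mean normalised read count (a signal averaged over libraries), a log2 fold change with its standard error, a column headed stat (a score), and a p-value and adjusted p-value. At the 7 sites that statistic was 0.945 to 1.00 times the log2 fold change over its standard error for the discs over the gland, and 0.900 to 1.06 times for wing over leg, so intervals from the printed errors are approximate. Means were equal in the 3 tables at all 3463 sites. Counts per library are not held, so the planned count test gave way to the authors' adjusted p, under 0.05 over all sites.

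Windows were built with Python 3.11.15 and pandas 2.3.3 from a RefSeq gene table of the same assembly. Site coordinates are as deposited and peak coordinates 1-based. Centring subtracted the chromosome arms' median over the SE from the statistic, with normal p-values and Benjamini-Hochberg adjustment, so centred calls are approximate. It was run on simulated data in which few sites changed, equally in both directions. In the authors' deposited tables many more sites were called, so that run does not show how centring performs there. Intervals are 1.96 SE on each side. Every site and peak in the windows was named, with neighbouring genes, the ImpL genes and called members of 2 lists. The members and lists were chosen with earlier results of these data known. The planned motif search was not made, since no sequence was used here.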

Additional observations from a re-analysis of the deposited data

How the results depend on the processing

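Every midpoint and summit lay outside the gene spans, so with no flank the counts were 0 in all 6 peak lists and against the gland for both discs. At an adjusted p of 0.01 in the authors' deposited tables, 4 sites were wing-biased and 3 leg-biased, and after centring on the chromosome arms 3 and 3. The shares of all sites called under these settings are not given, so these counts have no background beside them. Centring also turned the outermost ImpE2 site between wing and leg from -0.04 to 0.15, neither of which passed. With a −log10 q of 10 or more the wing pellet kept 4 of 7 peaks, the leg supernatant 3 of 6 and the gland pellet 0 of 1. With lists limited to the 936 strongest peaks, 4 remained in the wing pellet and 3 in the leg supernatant. A flank of 5000 bp gave 2 peaks in the gland pellet in place of 1. That flank gave 9 called sites for the wing against the gland. The outside site near ImpE3 was among them and was gland-biased, so not all 9 were wing-biased. The other alternatives, overlap in place of midpoint or summit, sites of at least median mean and adjustment over the arms alone among them, left each count within 1.5 times. The count of 0 between wing and leg stayed 0 in all 7 alternatives. No paired analysis was possible because the tables hold no values per library, and for the same reason no replicate could be left out. Depth per library is unknown, so precision rests on the deposited SE, 0.33 to 0.64 at the 7 sites for the wing over the gland.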
